A study of Aix galericulata with 8 samples.

Results

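The genes *MACF1*, *SVIL*, *EPB41L3* and *MYH10*, whose proteins tie the cytoskeleton together or pull on it, were examined in growing sail feathers of male Mandarin ducks (*Aix galericulata*). The members were every gene model that carries 1 of these 4 symbols in the deposited tables for the epithelium or the pulp of the feather. This rule found 13 gene models of the 859 distinct gene models that the tables list. All 13 were in the epithelium table, which lists 784 gene models, and 0 were in the pulp table, which lists 80. The rows of each table are the authors' own selection of genes that differed between the vanes, so being listed was what chose the members and is not a result here.

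The RNA sequencing covered wild-type males in the breeding season, while other parts of the study also used females. Regenerating sail feathers, labelled as early growth, were collected about 4 weeks after plucking with no treatment. The 8 RNA libraries fall into 4 groups of 2: brown vane epithelium, blue vane epithelium, brown vane pulp and blue vane pulp. The study's methods give 2 male birds as their source, so libraries of different groups share birds and are not independent. The labels do not name the bird of a library. Barbs form from the epithelium, the epidermal compartment, which surrounds a mesenchymal pulp. The study's methods name the neighbouring flight feather as well as the sail feather among those plucked, and the labels give only the sail feather.

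The cytoskeleton of an epithelial cell joins actin filaments, microtubules and the plasma membrane. Spectraplakins such as MACF1 bind both actin and microtubules and guide microtubules along actin, in the mammalian skin among other tissues. Proteins of the band 4.1 family, to which EPB41L3 belongs, anchor membrane proteins to the spectrin and actin network beneath the membrane. Supervillin, encoded by *SVIL*, attaches actin and myosin II to the membrane, and *MYH10* encodes the heavy chain of nonmuscle myosin IIB, a motor that tenses actin bundles in cell shape change and division.

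Each deposited table gives a logCPM for every gene model, the authors' log2 of the average CPM (reads counted for a gene model, scaled to a common library size). It is 1 value for the brown and blue libraries of a tissue together. Values for single libraries were in 0 of the columns. Neither sequencing depth nor replicate spread is therefore known, and no error, interval or new test of brown against blue vane can be given here. The authors' own logFC, p-value and FDR of that comparison were not used. CPM are not scaled to the length of a gene model, so the values state how many reads a model took and do not rank the genes by transcript number.

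*MACF1*, the spectraplakin, had 5 gene models in the epithelium table, all at a logCPM above the median of the listed models. Mandarin_00666000 had the highest logCPM of the 13 members, 7.71, or 208.8 average CPM. Mandarin_00640100 followed at 7.17 (144.4 average CPM) and Mandarin_00388300 at 6.89 (118.9 average CPM). Mandarin_00388100 had a logCPM of 6.14 and Mandarin_00460600 one of 5.82, or 70.7 and 56.6 average CPM. The highest of the 5 models thus took 3.69 times as many reads as the lowest. Mandarin_00388100 and Mandarin_00388300 lie 2 identifier steps apart, the sole pair of member models within 5 steps of each other. The sources used here do not state whether identifier order follows genome order, so steps are not read as distances in the genome. Whether the 5 models are pieces of 1 gene or separate copies is not given in the sources used here, so each model is given its own level here.

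*SVIL*, the membrane linker of actin and myosin, had 2 gene models with close levels. Mandarin_01551900 had a logCPM of 5.71 (52.2 average CPM) and Mandarin_00153100 one of 5.34 (40.4 average CPM), a ratio of 1.29. Their identifiers lie 13988 steps apart.

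*EPB41L3*, the band 4.1 protein, had 4 gene models that fell into a higher and a lower pair. Mandarin_00501400 had a logCPM of 6.02 (65.0 average CPM) and Mandarin_01200100 one of 5.95 (61.6 average CPM). Mandarin_00172200 and Mandarin_00488000 lay lower, at 3.69 and 3.59 (12.9 and 12.1 average CPM). The lower pair were the only members below the median of the listed models. The highest model took 5.39 times as many reads as the lowest, the widest ratio within any of the 4 symbols. No pair of these models lies closer than 134 identifier steps.

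*MYH10*, the nonmuscle myosin heavy chain, had 2 gene models, both among those that took the most reads. Mandarin_00837700 had a logCPM of 7.67 (203.9 average CPM) and ranked 35 of the 784 listed models. Mandarin_00301000 had a logCPM of 6.88 (117.9 average CPM) and ranked 69. They differed 1.73 times in average CPM and lie 5367 identifier steps apart.

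**Figure D1:**
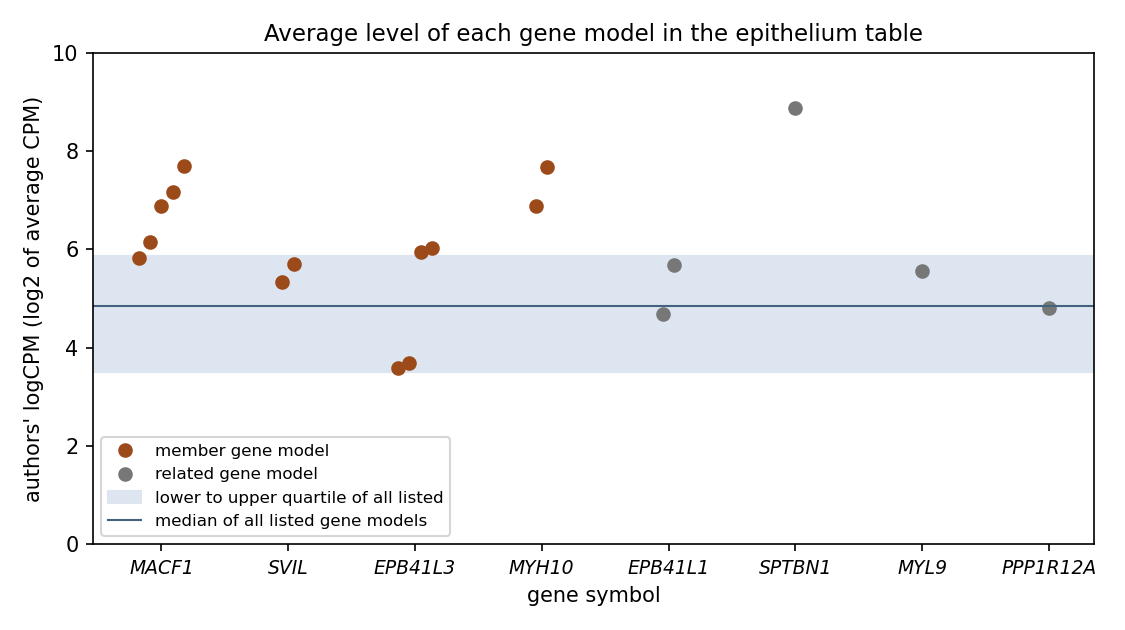
Authors' logCPM (log2 of average CPM over the epithelium libraries of both vanes, vertical axis) of each gene model, by symbol (horizontal axis), with 1 point per gene model, brown for the members and grey for listed related genes; the line is the median and the band spans the range between the quartiles of all 784 listed gene models. The 5 *MACF1*, 2 *SVIL* and 2 *MYH10* models lie above the median line at 4.84, and 2 of the 4 *EPB41L3* models lie below it.

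Over the 13 members the logCPM ranged between 3.59 and 7.71, with a median of 6.02. With the models of each symbol summed, the median over the 4 symbols was 7.79. Such a sum rises with the number of models. The other listed symbols were not summed, so this value has no counterpart among them. The median over all 784 single listed gene models of the epithelium was 4.84, with quartiles at 3.50 and 5.86. Of the 13 members, 11 lay above that median and 8 above the upper quartile. By symbol, the median logCPM was 7.28 for *MYH10*, 6.89 for *MACF1* and 5.52 for *SVIL*. That of *EPB41L3* was 4.82, just below the median of the listed models. These positions describe reads per gene model among listed models alone. Models with more reads pass a test at a smaller difference and longer models take more reads, and the part of either in these positions was not tested.

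Several gene models for 1 symbol were uncommon in the epithelium table. It holds 499 symbols, of which 453 have 1 gene model and 46 have 2 or more. All 4 member symbols are among these 46. *MACF1* with 5 models and *EPB41L3* with 4 are among the 6 symbols that have 4 or more. These counts cover listed models alone, and the 4 symbols were chosen with earlier results of these data known. Their place among the 46 is therefore a description of the choice and not a result about the members. Models that share a symbol may share a transcript, so the 13 gene models cannot be taken as 13 independent genes.

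**Figure D2:**
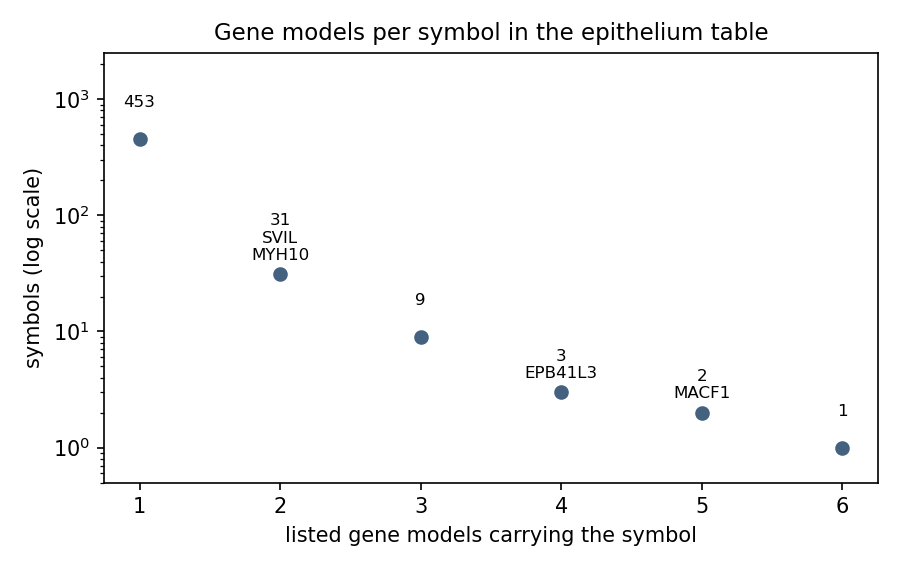
Number of symbols (vertical axis, log scale) against the number of listed gene models that carry the symbol (horizontal axis) in the epithelium table, with 1 point for each number of models and the member symbols written above their point. Of 499 symbols, 453 have a single gene model, while *SVIL* and *MYH10* have 2, *EPB41L3* has 4 and *MACF1* has 5.

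Of 54 related cytoskeletal genes, 4 were listed in the epithelium, with 5 gene models, and 0 in the pulp. A set of 20 genes held other band 4.1 and ERM proteins, spectrins, adducins, ankyrins and a cell adhesion molecule. Of this set, *EPB41L1*, a relative of *EPB41L3*, and *SPTBN1*, a beta spectrin of the membrane skeleton, were listed in the epithelium. *SPTBN1* had a logCPM of 8.87 (469.1 average CPM), above that of each member, and the 2 gene models of *EPB41L1* had 5.69 and 4.68. Among 11 genes of nonmuscle myosin, its light chains and regulators, *MYL9*, a regulatory light chain of myosin II, was listed at a logCPM of 5.57. *PPP1R12A*, the targeting subunit of the phosphatase that acts on that light chain, was listed at 4.82. Of the 12 other plakins and microtubule plus-end proteins 0 were listed, and likewise 0 of the 11 genes of the villin and gelsolin family and actin crosslinkers. The share of all tested genes that was listed is not known from the columns used, so these counts, those of 0 included, cannot be read as many or few. A gene that is not listed was not chosen by the authors' comparison, and nothing about its level follows from that.

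The labelled tissues could not be checked against their defining markers, because the tables list selected gene models alone. Markers too were matched by symbol, so the counts below may miss a listed gene model that carries no symbol. Of 9 keratinocyte markers 0 were listed in the epithelium table, and of 9 mesenchymal markers 0 were listed in the pulp table. Of 5 endothelial markers, *ENG* and *TEK* were listed in the epithelium, at a logCPM of 5.64 and 3.24. Of 4 markers of smooth muscle and pericytes, *TAGLN* and *RGS5* were listed there, at 3.81 and 2.51. Of 9 mesenchymal and 6 melanocyte markers, 0 were listed in the epithelium. In the pulp, 1 of the 4 markers of smooth muscle and pericytes was listed, *MYH11* at 7.81. *MLANA* at 5.60 was the 1 listed there of the 6 melanocyte markers, and 0 of the 5 endothelial markers were listed there. *MYL9* and *MYH10* are also active in smooth muscle and other mesenchymal cells. The part of such cells in the levels of these genes, or of any other member, was not tested. In such bulk tissue, fewer cells of a type and less RNA per cell cannot be told apart.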

How the data were processed

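Poly(A) RNA of 8 libraries, 2 in each of 4 groups, was sequenced by the authors as single reads, aligned with STAR 2.4.1d, counted with HTSeq 0.6.0, scaled by TMM and compared between the vanes with edgeR, each tissue on its own. The study names a deposited Mandarin duck reference genome. Its build name and annotation version, and whether the RNA reads were aligned to it, are not given in the sources used here. The identifiers of the member gene models begin with Mandarin, which points to a Mandarin duck annotation but names no build. The 2 deposited tables hold the authors' logFC, p-value and FDR of that comparison, which were not used here, and a logCPM. The logCPM values are the authors' log2 of average CPM. The 5 gene models in both tables had different logCPM in each, so the average belongs to 1 tissue. Values for single libraries were in 0 of the columns, so depth and replicate spread are unknown and no test was run.

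Gene models were selected by symbol, logCPM was raised to average CPM as a power of 2, and ranks, medians and counts were taken over the listed models. Identifiers run in steps of 100, and neighbours were sought within 5 steps. The genes named are all gene models of the 4 symbols, listed members of the 54 related genes and listed cell type markers. The members and lists were chosen with earlier results of these data known. Python 3.11.15, pandas 2.3.3, numpy 2.4.6 and matplotlib 3.10.9 were used.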

Additional observations from a re-analysis of the deposited data

How the results depend on the processing

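The median logCPM of the 13 members, 6.02, was 6.05 as a mean, 5.83 without the *MACF1* gene models and 7.79 when the models of each symbol were summed before the median was taken over symbols. Counted as symbols in place of gene models, the members number 4. The median of all listed models was 4.89 in place of 4.84 when limited to those with a symbol. No paired analysis was possible because the columns carry no replicate and no test was run, and for the same reason no replicate could be left out. Low levels could not be judged against depth, since no count is in the tables.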
